A study of Mus musculus with 4 samples.

Results

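Mitochondrial ribosomal protein genes code for the protein parts of the ribosome inside mitochondria, and 78 of the 54532 genes in the deposited count table are of this kind. They were taken as the protein-coding genes whose symbol starts with Mrps or Mrpl followed by a digit. By known subunit membership, 26 belong to the small subunit and 51 to the large subunit. The last one, Mrps36, keeps its ribosomal name but is known as a subunit of the oxoglutarate dehydrogenase complex, so it is counted as a member and kept apart from the subunits.

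The libraries came from wild-type mouse Th2 cells, labelled as belonging to a bleomycin-induced model of SSc (systemic sclerosis). For each, naive CD4+ T cells were grown under Th2-polarising conditions with HU-308, a synthetic cannabinoid selective for the receptor CB2 (2 libraries), or with the solvent DMSO (2 libraries). All 4 cultures were stimulated again on day 4 with beads against CD3 and CD28 and collected 12 h later. The labels do not say whether libraries of a group came from separate mice or cultures, and any p-value here is therefore relative to the scatter of the 4 libraries, part of which may be technical. Neither the strain nor the age of the mice is given in the labels, and no library from cells without the receptor was analysed here.

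The mitochondrial ribosome translates the few messenger RNAs of the mitochondrial genome, all of which code for core proteins of the respiratory chain and ATP synthase. Its ribosomal RNAs are transcribed from mitochondrial DNA, whereas its proteins are made from nuclear genes in the cytosol and imported. The small subunit reads the message and the large subunit joins the amino acids. Some of the proteins descend from those of bacterial ribosomes and others were added during the evolution of mitochondria. T cells that leave quiescence are known to enlarge their mitochondria and to make more of this translation machinery.

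The libraries held 16145298 and 16263077 counts in HU-308 cells and 18041457 and 20479254 counts in DMSO cells, and 20525 to 21319 genes had at least 1 count. T cell markers were present at a summed 1668 and 1904 CPM (counts scaled to a common library size) in HU-308 cells, against 1396 and 1665 CPM in DMSO cells. The 6 Th2 markers summed to 965 and 1061 CPM in HU-308 cells, against 1349 and 1581 CPM in DMSO cells. Of these, 5 were lower in HU-308 cells at an edgeR unadjusted p under 0.05, and Il1rl1 had a log2 fold change of 0.10. Only Il5 and Il13 passed the adjusted threshold (log2 fold changes of -3.53 and -3.69, edgeR adjusted p = 0.0389 for each). B cell markers summed to 83.2 and 67.5 CPM in HU-308 cells and to 39.8 and 35.3 CPM in DMSO cells. CD8 markers summed to 13.8 and 12.1 CPM in HU-308 cells and to 12.5 and 13.7 CPM in DMSO cells. Myeloid markers summed to 31.3 and 63.3 CPM in HU-308 cells and to 42.3 and 78.9 CPM in DMSO cells, with Lyz2 at 0 in every library. NK markers stayed at or below 8.59 CPM and erythroid markers at or below 2.14 CPM in every library, with Klrb1c, Hbb-bs and Hba-a2 at 0. The part of these cells in the results was not tested. In bulk RNA, fewer cells of a type and less RNA per cell cannot be told apart.

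The members as a group sat at nearly the same level in HU-308 and DMSO cells. Of 78 members, 77 had enough reads to be tested, and none passed an adjusted p of 0.05 in edgeR's quasi-likelihood test with Benjamini-Hochberg adjustment, against 0.314% of all 14316 genes tested. The lowest adjusted p of a member was 0.10. At an unadjusted p under 0.05, 6 members were lower and 0 were higher in HU-308 cells. With library size only as the scaling, which moves the median of all genes by over 0.1, 2 were lower and 6 were higher. In the TMM-scaled test, the share lower was 7.79% of tested members against 9.97% of all tested genes, and the share higher among all tested genes was 8.79%. DESeq2 called 2 members lower at an adjusted p under 0.05, where it called 4.4% of the 11818 genes with an adjusted p lower. limma-voom called 0 members.

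The log2 fold changes of the 77 members, HU-308 over DMSO, had a median of 0.02, as did those of all tested genes. They ran between -1.10 and 0.63, with quartiles at -0.22 and 0.18. The estimate was positive for 43 members and negative for 34. It lay within 0.5 of 0 for 69 members, which is 89.6% of them against 71.0% of all tested genes. The share was 86.7% for cytosolic ribosomal protein genes, 80.5% for nuclear respiratory chain genes and 73.9% for all tested protein-coding genes. Both libraries of one group lay above both of the other in 34 members (18 higher and 16 lower in HU-308 cells), a share of 44.2% against 51.3% of all tested genes.

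The median absolute log2 difference over members was 0.19 between the group means. It was 0.12 between the HU-308 libraries and 0.19 between the DMSO libraries. A group mean averages 2 libraries and scatters less than a single library, so the 3 values are not on an equal footing. The 95% interval of the fold change lay within 2-fold either way for 66 members, reached 2-fold lower for 5 and reached 2-fold higher for 6. A missing call is therefore no measurement of equal levels, and the median half-width of these intervals was 0.46 on the log2 scale. Tested members had between 500 and 3649 counts over the 4 libraries, and no library had fewer than 107 counts for any of them.

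**Figure D1:**
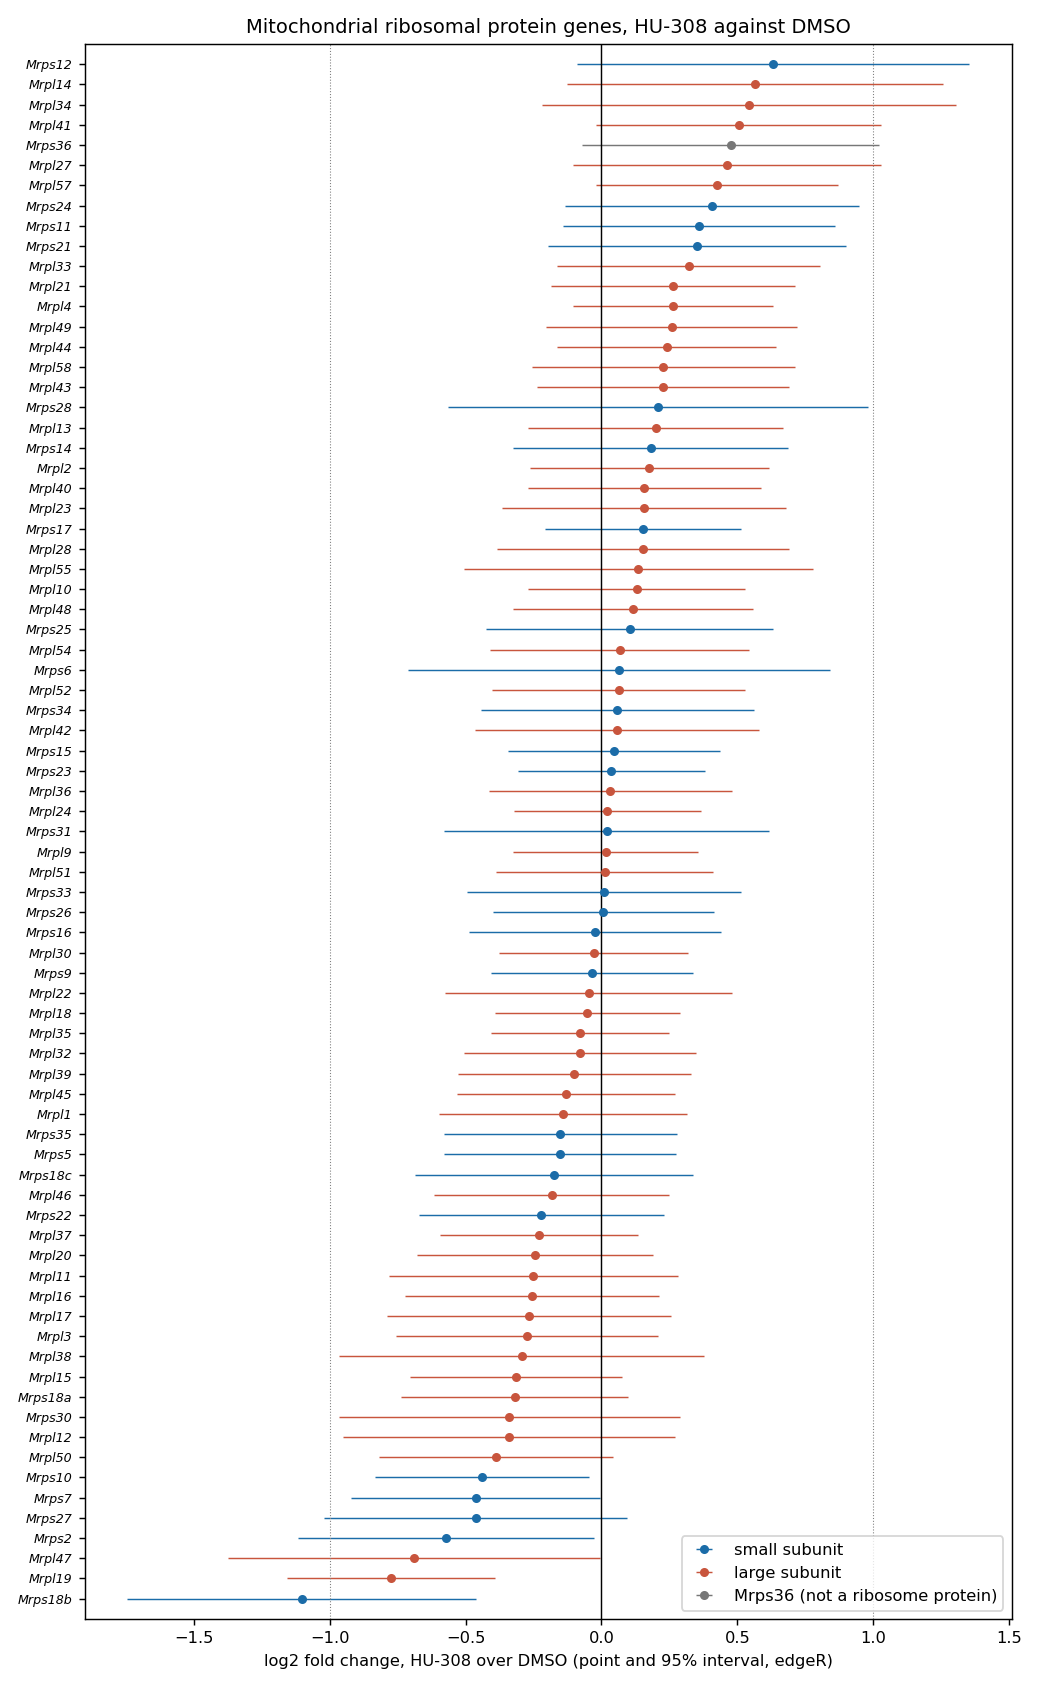
Log2 fold change (HU-308 over DMSO) of the 77 tested members, with the edgeR estimate as a point and its 95% interval as a line, coloured by subunit. Most intervals cross 0, and the estimates run between -1.10 for Mrps18b at the bottom and 0.63 for Mrps12 at the top.

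Among small subunit proteins the widest difference was in Mrps18b, one of 3 mammalian paralogs of the bacterial protein S18. The gene lies on the minus strand of chromosome 17, at 35910379 to 35916389 (GRCm38). It had 11.1 and 8.94 CPM in HU-308 cells, against 25.7 and 17.5 CPM in DMSO cells. Both HU-308 libraries were below both DMSO libraries. The log2 fold change was -1.10 ± 0.26 (SE), a fold of 0.465 in HU-308 cells, with an edgeR adjusted p of 0.127. The adjusted p was 0.0123 with DESeq2 and 0.144 with limma-voom. Without DMSO replicate 2 the edgeR log2 fold change was -1.35 with an adjusted p of 0.035, and without each of the other libraries it lay between -1.27 and -0.82 with adjusted p-values of 0.147 to 0.394. The authors' deposited table gives a log2 fold change of -1.11 and an adjusted p of 0.0146. The antisense gene Gm16279 shares 30.5% of the exon bases of Mrps18b and had 129 counts in all, and whether counting used strand is not stated.

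The other S18 paralogs were nearer to 0. Mrps18a, which sits in the large subunit, had 16.2 and 17.5 CPM in HU-308 cells against 21.4 and 20.6 CPM in DMSO cells, a log2 fold change of -0.32 ± 0.17. Mrps18c, the small subunit paralog placed where bacterial S18 sits, had 10.2 and 12.1 CPM in HU-308 cells against 12.0 and 13.2 CPM in DMSO cells, a log2 fold change of -0.17 ± 0.21. The groups did not overlap in Mrps18a and overlapped in Mrps18c. The edgeR adjusted p was 0.368 for Mrps18a and 0.682 for Mrps18c. No test of the difference between the paralogs was made.

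The small subunit genes Mrps2, Mrps7 and Mrps10 were also lower in HU-308 cells at an unadjusted p under 0.05. Mrps2, a counterpart of bacterial S2, had 26.8 and 21.7 CPM in HU-308 cells, against 41.8 and 30.4 CPM in DMSO cells. Mrps7, whose bacterial counterpart binds the ribosomal RNA of the subunit's head, had 29.3 and 25.6 CPM in HU-308 cells, against 42.2 and 33.5 CPM in DMSO cells. Mrps10, a counterpart of bacterial S10, had 23.2 and 21.4 CPM in HU-308 cells, against 30.9 and 29.6 CPM in DMSO cells. In each of these genes both HU-308 libraries were below both DMSO libraries, by a narrow margin in Mrps2 and Mrps7. Their log2 fold changes were -0.57 for Mrps2, -0.46 for Mrps7 and -0.44 for Mrps10, with edgeR adjusted p-values of 0.250, 0.263 and 0.231.

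Mrps27 is a mitochondria-specific small subunit protein with the helical repeats of RNA-binding pentatricopeptide proteins. It had 12.9 and 13.2 CPM in HU-308 cells, against 20.9 and 15.1 CPM in DMSO cells, so the HU-308 libraries were close together and below both DMSO libraries. The log2 fold change was -0.46 ± 0.23 with an edgeR adjusted p of 0.331.

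The highest fold change of all members was in another small subunit gene, Mrps12, whose bacterial counterpart S12 takes part in accurate decoding. It lies on the minus strand of chromosome 7, at 28739641 to 28741820 (GRCm38). Mrps12 had 21 and 13.3 CPM in HU-308 cells, against 9.46 and 12.6 CPM in DMSO cells. The groups did not overlap, but the lower HU-308 library and the higher DMSO library were close. The log2 fold change was 0.63 ± 0.29, with an edgeR adjusted p of 0.312. Mrps24 followed among small subunit genes, with 19.8 and 25.4 CPM in HU-308 cells against 19.1 and 15 CPM in DMSO cells and a log2 fold change of 0.41 ± 0.22.

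In the large subunit the lowest fold change was in Mrpl19, a counterpart of bacterial L19, which lies where the subunits meet. The gene is on the minus strand of chromosome 6, at 81957851 to 81965958 (GRCm38). It had 20.4 and 21.7 CPM in HU-308 cells, against 36.1 and 35.9 CPM in DMSO cells. The libraries of each group were close together and the groups lay far apart. The log2 fold change was -0.77 ± 0.15, a fold of 0.585 in HU-308 cells, with an adjusted p of 0.10 in edgeR, 0.018 in DESeq2 and 0.102 in limma-voom. The authors' deposited table gives -0.78 with an adjusted p of 0.0355. Of its exon bases, 36.0% are shared with Gcfc2 on the opposite strand, which had 1261 counts in all. Mrps18b and Mrpl19 are also the 2 members that the authors' deposited table places below an adjusted p of 0.05, with 0 members higher, and it places 2.07% of its 23290 genes lower.

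Mrpl47, a counterpart of bacterial L29, had 10.4 and 6.63 CPM in HU-308 cells, against 14.8 and 12.7 CPM in DMSO cells. The groups did not overlap, and the log2 fold change was -0.69 ± 0.28 with an edgeR adjusted p of 0.264. Other large subunit genes among the 12 lowest members were Mrpl50, Mrpl12, Mrps30 and Mrpl15, with log2 fold changes between -0.39 and -0.31. Mrps30, like Mrps18a, is a large subunit protein in spite of its name. Mrpl12 forms the stalk that binds translation factors. It had 21.6 and 19.1 CPM in HU-308 cells and 31.2 and 20.3 CPM in DMSO cells, and its groups overlapped. Mrpl10, the base of the same stalk, had 51.6 and 56.3 CPM in HU-308 cells and 54.4 and 44.2 CPM in DMSO cells, with a log2 fold change of 0.13 ± 0.16.

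At the upper end of the large subunit were Mrpl14, Mrpl34, Mrpl41, Mrpl27 and Mrpl57, with log2 fold changes of 0.56, 0.54, 0.50, 0.46 and 0.42. Mrpl14, a counterpart of bacterial L14 on the subunit interface, had 8.44 and 13.1 CPM in HU-308 cells, against 7.10 and 7.45 CPM in DMSO cells. Mrpl41, a mitochondria-specific protein, had 12.1 and 13.5 CPM in HU-308 cells, against 8.25 and 9.75 CPM in DMSO cells. Both genes had no overlap between groups, with the HU-308 libraries of Mrpl14 wide apart. The groups of Mrpl27 and Mrpl57 did not overlap either. For Mrpl34 they did, with 15.7 and 9.24 CPM in HU-308 cells and 9.29 and 7.86 CPM in DMSO cells. The edgeR adjusted p-values of these 5 genes lay between 0.279 and 0.395.

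Mrpl45, Mrpl58 and Mrps36, chosen for tasks beside protein synthesis itself, had estimates within 0.5 of 0 on the log2 scale. So did 89.6% of all tested members. Mrpl45, which holds the ribosome at the inner membrane, had 32.6 and 29.9 CPM in HU-308 cells and 36.7 and 31.8 CPM in DMSO cells, and the groups overlapped. Mrpl58, a peptidyl-tRNA hydrolase that frees stalled ribosomes, had 18.5 and 16.3 CPM in HU-308 cells against 16.2 and 13.5 CPM in DMSO cells, with groups that touched without overlap. Mrps36, the member outside the ribosome, had 9.5 and 9.48 CPM in HU-308 cells, against 7.27 and 6.38 CPM in DMSO cells. The log2 fold change of Mrps36 was 0.48 ± 0.22, with an edgeR adjusted p of 0.313.

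**Figure D2:**
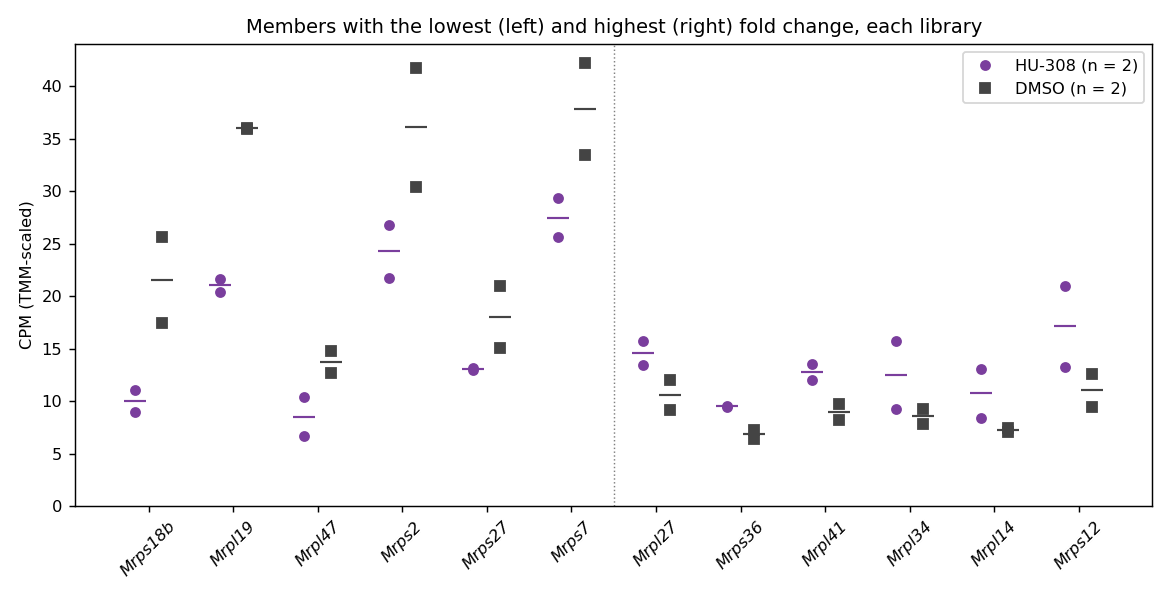
CPM (scaled by trimmed mean of M values) in each library for the 6 members with the lowest and the 6 with the highest log2 fold change; circles are the 2 HU-308 libraries, squares the 2 DMSO libraries and bars the group means. In Mrpl19 the HU-308 libraries, at 20.4 and 21.7 CPM, sit well below the DMSO libraries at 36.1 and 35.9 CPM, whereas in Mrpl34 the groups overlap.

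The subunits had nearly equal medians. The small subunit had a median log2 fold change of 0.01 over 26 genes, with 4 (15.4%) lower at an unadjusted p under 0.05. The large subunit had 0.02 over 50 genes, with 2 (4%) lower, beside 9.97% of all tested genes. The 45 genes filed with a bacterial counterpart had a median of 0.01 and 5 (11.1%) lower, and the 31 tested genes filed as mitochondria-specific had a median of 0.02 and 1 (3.23%) lower. That one is Mrps18b, which the ribosome's nomenclature files as mitochondria-specific, like Mrps18a, although both resemble bacterial S18. No difference between these groups was tested. Adding all members, they took 0.182% and 0.177% of the unscaled counts in HU-308 cells, against 0.176% and 0.162% in DMSO cells. With TMM scaling these shares overlap between groups.

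Levels differed far more between members than between treatments. On the FPKM scale (fragments scaled for gene length and library depth, as the authors deposited them), Mrpl18 was the highest member, with 31.7 and 32.3 in HU-308 cells and 34.6 and 32.1 in DMSO cells. Mrps23, Mrpl10 and Mrps21 followed, with means over the 4 libraries of 30.0, 30.0 and 26.2 FPKM. Every library of Mrpl18 was above every library of Mrps23. The range of Mrpl10 overlaps those of both, so its place in this order is not resolved. At the low end were Mrps35, Mrpl17, Mrpl48 and Mrps25. Mrps25 had 1.83 and 1.52 FPKM in HU-308 cells and 1.65 and 1.48 FPKM in DMSO cells, 20.2-fold below Mrpl18 on average.

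The member median was 8.24 and 7.64 FPKM in HU-308 cells and 8.78 and 7.82 FPKM in DMSO cells. Cytosolic ribosomal protein genes had medians of 191 and 187 FPKM in HU-308 cells and 158 and 166 FPKM in DMSO cells. These per-length levels depend on the gene length used, which counts all exons of all transcripts. With the GENCODE principal transcript instead, a choice made after seeing the data, Mrpl33 was the highest member and the span to Mrps25 was 48.5-fold. The counts were still those of the whole gene, so counts and length cover different bases. For Mrpl33 the deposited length is 7326 bases and the principal transcript has 478. The rank correlation of the 2 sets of levels over the 77 genes was 0.677. Of the exon bases of Mrps25, 69.8% are shared with Nr2c2 on the opposite strand.

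**Figure D3:**
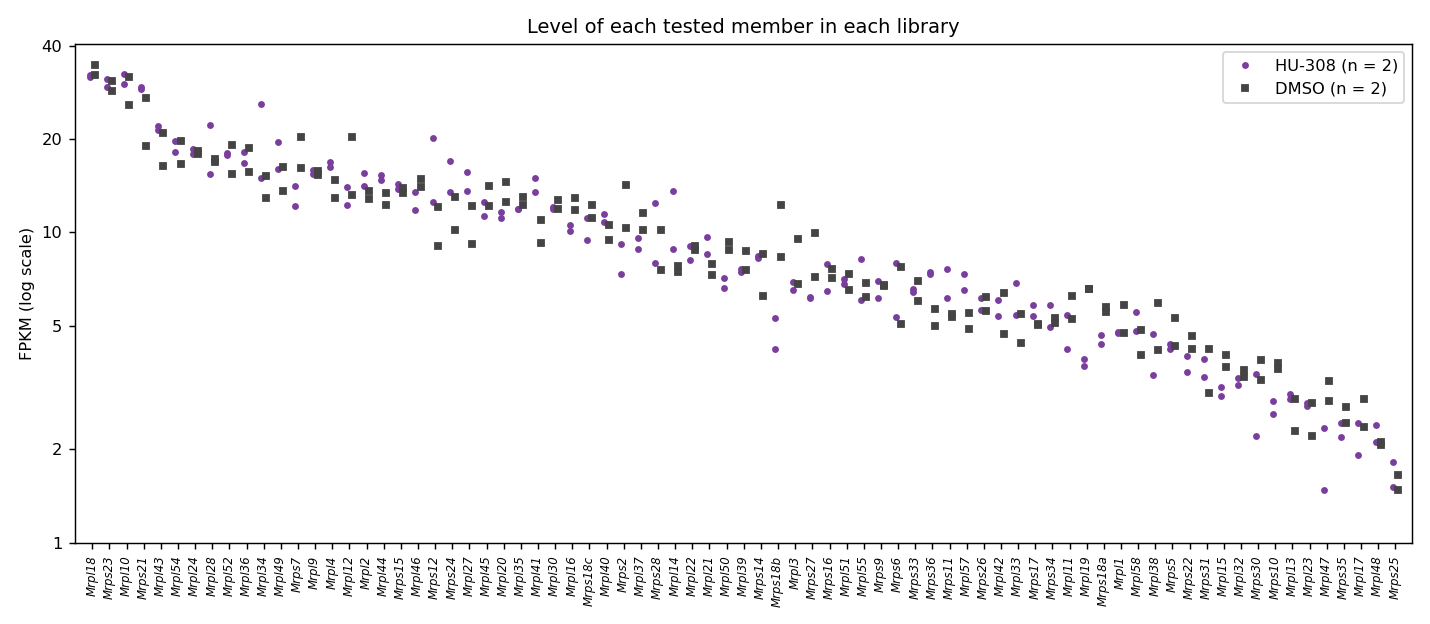
FPKM (log scale) of each of the 77 tested members in each library, ordered by mean; circles are the 2 HU-308 libraries and squares the 2 DMSO libraries. The members run between Mrpl18, at 31.7 to 34.6 FPKM, and Mrps25, at 1.48 to 1.83 FPKM.

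Mrpl53 was the only member not tested, with 0 counts in every library. The annotation places 88.0% of its exon bases inside the exons of Gm42688 on the same strand, which had 72 counts in all. Its 0 therefore cannot be read as absence of the transcript. In all, 33 of the 78 members share exon bases with another annotated gene.

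The fold change of members was lower in longer genes. Over the 77 members, the rank correlation of log2 fold change with deposited gene length was -0.41, and with principal transcript length -0.42. Over all tested protein-coding genes it was -0.17 on both lengths. Genes are not independent replicates, so these are descriptions. The 25 shortest members, of 607 to 1644 bases, had a median of 0.15, with 19 positive and 6 negative. The 26 members of 1664 to 3291 bases had a median of 0.01, and the 26 longest had a median of -0.11, with 10 positive and 16 negative. All tested protein-coding genes, cut at the same 1644 and 3291 bases, had the same order, with medians of 0.23, 0.09 and -0.02. Their outer classes reach further than those of the members, down to 45 and up to 123179 bases, so lengths are not matched. After the length trend over all genes was removed, the member median was -0.055.

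**Figure D4:**
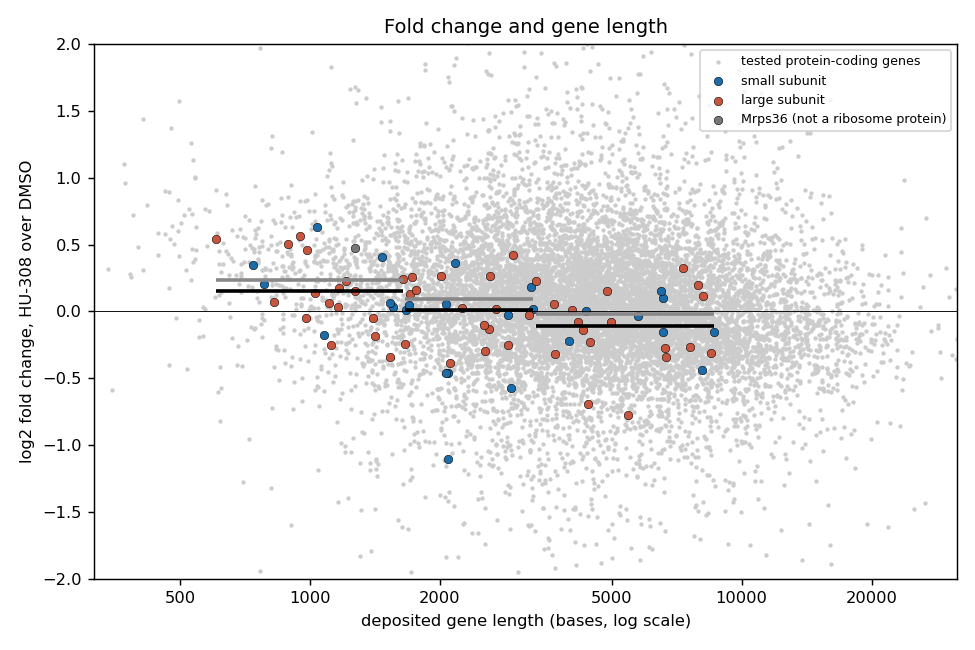
Log2 fold change (HU-308 over DMSO) against deposited gene length (bases, log scale) for members, coloured by subunit, and for all tested protein-coding genes in grey; genes beyond the axes are not drawn. Black bars mark the member medians in 3 length classes (0.15, 0.01 and -0.11) and grey bars those of all tested protein-coding genes (0.23, 0.09 and -0.02). Grey bars are drawn over the lengths of the members, but their outer classes reach down to 45 and up to 123179 bases.

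Some promoters of members hold known motifs, letters that the choice of members did not use. A RefSeq promoter (GRCm38.p6, 250 bases before to 50 bases after the start) was found for 69 members, with 75 windows in all. Known motifs of 3 activators of mitochondrial genes were searched on both strands. A gene with more than 1 window was counted once, if any of its windows matched. The NRF1 motif, spelled GCGCNTGCG, was in the promoters of 18 of 69 members (26.1%). It was in those of 15.9% of 9297 tested protein-coding genes and 7.12% of all 27025 genes with a promoter. The ETS motif CCGGAAGT, of the kind bound by GABPA, was in 12 (17.4%), against 9.72% and 4.31%. The YY1 motif AAGATGGCG was in 8 (11.6%), against 3.73% and 1.64%. At least 1 of these 3 motifs was in the promoters of 35 of the 69 members, and those of the others held none. The E-box CACGTG, of the kind bound by MYC, was in 5 (7.25%), against 11.8% and 8.09%. The GC box GGGCGG was in 34 (49.3%), against 69.0% and 38.2%. The CRE TGACGTCA was in 2 members and the ERR motif TCAAGGTCA in 0. None of these motifs was searched with mismatches. Matches of ETS and YY1 can lie in the same promoter. A match is a run of letters and not a measured binding site.

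3 promoters show this variety, for the lowest small subunit member, for a member with 2 of the motifs and for the highest member. Each is printed 5′ to 3′ on the strand of the gene, with matches to the NRF1, ETS or YY1 letters, on either strand, in capitals. They are chr17:35916391-35916690 (minus strand) for Mrps18b, chr13:99344536-99344835 (plus strand) for Mrps27 and chr7:28741772-28742071 (minus strand) for Mrps12.
Mrps18b: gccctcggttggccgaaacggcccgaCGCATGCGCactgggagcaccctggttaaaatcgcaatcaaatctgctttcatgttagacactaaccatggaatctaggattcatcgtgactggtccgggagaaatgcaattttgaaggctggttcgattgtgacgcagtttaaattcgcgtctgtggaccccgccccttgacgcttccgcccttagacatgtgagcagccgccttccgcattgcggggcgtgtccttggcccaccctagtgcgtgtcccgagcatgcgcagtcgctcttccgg
Mrps27: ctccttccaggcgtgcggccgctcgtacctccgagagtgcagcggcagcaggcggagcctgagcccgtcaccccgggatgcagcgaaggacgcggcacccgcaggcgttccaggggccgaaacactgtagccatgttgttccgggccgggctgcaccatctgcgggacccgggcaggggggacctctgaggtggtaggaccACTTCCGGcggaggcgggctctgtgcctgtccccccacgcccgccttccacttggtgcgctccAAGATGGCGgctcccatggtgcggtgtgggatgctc
Mrps12: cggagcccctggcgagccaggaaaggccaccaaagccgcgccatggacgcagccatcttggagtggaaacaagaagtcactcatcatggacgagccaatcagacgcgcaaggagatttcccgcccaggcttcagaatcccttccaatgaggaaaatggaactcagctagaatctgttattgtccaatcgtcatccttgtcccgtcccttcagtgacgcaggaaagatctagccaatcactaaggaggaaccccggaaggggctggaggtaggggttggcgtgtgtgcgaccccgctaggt
Mrps18b has 1 NRF1 match, written here as its reverse complement, and its window ends upstream of the gene as the deposited table places it. Mrps27 has an ETS match, also in reverse complement, upstream of a YY1 match. Mrps12 has none of these letters in its window.

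The fold changes of members were set beside these letters as a description, without a test. The median log2 fold change was -0.03 in the 18 members with the NRF1 letters, against 0.03 in the 50 tested members without them, and 2 members with and 3 without them had an unadjusted p under 0.05. It was 0.01 with and 0.02 without the ETS letters, and -0.02 with and 0.02 without the YY1 letters. Of the genes for these activators, Nrf1 had 54.3 and 65.0 CPM in HU-308 cells against 71.3 and 72.4 CPM in DMSO cells, without overlap. Gabpa had 86.0 and 92.2 CPM in HU-308 cells and 92.6 and 99.0 CPM in DMSO cells, with groups that nearly met. Yy1 had 243 and 226 CPM in HU-308 cells against 202 and 189 CPM in DMSO cells, without overlap. No gene of the 13 tested regulators passed the edgeR adjusted p of 0.05. At an unadjusted p under 0.05, 2 (15.4%) were lower, against 9.97% of all tested genes. These were Myc, with 34.7 and 16.3 CPM in HU-308 cells against 97.4 and 52.9 CPM in DMSO cells, and Pprc1, a coactivator of NRF1. Pprc1 had 119 and 89.3 CPM in HU-308 cells against 210 and 189 CPM in DMSO cells (log2 fold change of -1.56 ± 0.44 and edgeR adjusted p of 0.159 for Myc, -0.93 ± 0.18 and 0.0959 for Pprc1). The highest regulator was Atf5, with a log2 fold change of 0.85 ± 0.66.

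A second feature of some members was the position beside another gene. Of the 78 members, 18 (23.1%) start within 1000 bases of the start of a protein-coding gene that runs the other way without overlapping them, against 10.7% of 11723 tested protein-coding genes and 6.79% of all 21951. In 17 of these pairs both genes were tested, and 14 (82.4%) had fold changes of the same sign, against 59.8% of all 562 such pairs of tested protein-coding genes. Mrps11 and Mrpl46, which overlap at their starts, are not counted. Mrps12 starts 172 bases from Sars2, the mitochondrial seryl-tRNA synthetase, which had a log2 fold change of 0.46 ± 0.17. Mrps27 starts 81 bases from Ptcd2 (-0.32 ± 0.20) and Mrps18b 45 bases from Ppp1r10 (-0.20 ± 0.13), a regulator of a nuclear phosphatase. Of the 17 tested partners, 0 passed the edgeR adjusted p of 0.05, against 0.314% of all tested genes. At an unadjusted p under 0.05, 4 were higher, namely Klc4, Fau, Pnpla7 and Sars2, and 0 were lower. Of all tested genes, 8.79% were higher and 9.97% lower at that threshold.

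Other genes of mitochondrial translation were read from the same test. None of the genes in the following groups passed the edgeR adjusted p of 0.05. At an unadjusted p under 0.05, 9.97% of all tested genes were lower and 8.79% were higher, and the counts below stand beside these shares. Of the 5 other proteins of the mitochondrial ribosome, 1 was lower at an unadjusted p under 0.05. This was Ptcd3, a small subunit protein with pentatricopeptide repeats, with 73.1 and 72.8 CPM in HU-308 cells against 112 and 95.2 CPM in DMSO cells. The groups did not overlap, and its log2 fold change was -0.50 ± 0.14. The median of these 5 genes was -0.01.

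The 27 factors that assemble the ribosome had a median log2 fold change of -0.01, with 4 lower and 2 higher in HU-308 cells at an unadjusted p under 0.05. The lowest was C1qbp, a matrix chaperone needed for mitochondrial translation, with 50.7 and 26.4 CPM in HU-308 cells against 96.8 and 67.3 CPM in DMSO cells. Mrm3, a methyltransferase of the large ribosomal RNA, had a log2 fold change of -0.98 ± 0.26. Gtpbp10, a GTPase of large subunit assembly, had -0.61 ± 0.23. Fastkd2, which binds the large ribosomal RNA, had -0.60 ± 0.17. The higher ones were Mpv17l2 (0.73 ± 0.28), an inner membrane protein needed for subunit assembly, and Mettl17 (0.48 ± 0.17), a small subunit assembly factor. The groups of each of these 6 factors did not overlap, and edgeR adjusted p-values lay between 0.150 and 0.244.

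The 16 translation factors had a median of -0.07, with 1 lower at an unadjusted p under 0.05. It was Lrpprc, which stabilises mitochondrial messenger RNAs, at 74.6 and 58.9 CPM in HU-308 cells against 138 and 97.8 CPM in DMSO cells. The lowest estimate was that of the deformylase Pdf (-1.26 ± 0.56, from 5 and 6 counts in HU-308 cells and 16 and 13 counts in DMSO cells), and the highest that of Oxa1l (0.30 ± 0.13), which inserts new proteins into the inner membrane. The 15 genes of mitochondrial DNA upkeep and transcription had a median of -0.02, with the RNA processing enzyme Elac2 (-0.66 ± 0.20) and the helicase Twnk (-0.60 ± 0.20) lower at an unadjusted p under 0.05. Their lowest estimate was Top1mt (-0.92 ± 0.51) and their highest Mterf1b (0.70 ± 0.42).

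Both ribosomal RNAs of the mitochondrial ribosome were lower in HU-308 cells at an unadjusted p under 0.05, and neither had an adjusted p under 0.05. The small ribosomal RNA mt-Rnr1 had 508 and 465 CPM in HU-308 cells, against 840 and 788 CPM in DMSO cells. The large ribosomal RNA mt-Rnr2 had 1370 and 930 CPM in HU-308 cells, against 2391 and 1917 CPM in DMSO cells. Neither gene's groups overlapped. The log2 fold changes were -0.74 ± 0.14 (edgeR adjusted p = 0.0933) for mt-Rnr1 and -0.91 ± 0.24 (edgeR adjusted p = 0.148) for mt-Rnr2. The kit is labelled as one for mRNA, so the ribosomal RNA reads are those that this preparation kept.

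Of the 12 tested mitochondrial messenger RNAs, 11 had a negative estimate and 9 (75%) had both HU-308 libraries below both DMSO libraries. Of all 14316 tested genes, 3640 were apart in that direction and 51.3% in either direction. Their median was -0.42, and mt-Nd1 (-0.67 ± 0.20) and mt-Nd2 (-0.56 ± 0.22), subunits of complex I, were lower at an unadjusted p under 0.05. The exception was mt-Co2, a subunit of complex IV, with 24.4 and 12.3 CPM in HU-308 cells and 16.8 and 14.9 CPM in DMSO cells. That level is a very small part of the counts of the set. Whether reads of mt-Co2 were lost in mapping or counting was not tested, so its direction carries little weight. Together the mitochondrial messenger RNAs took 1.5% and 1.22% of the unscaled counts in HU-308 cells, against 1.94% and 1.48% in DMSO cells. These unscaled shares overlap. With the TMM scaling used for the fold changes, both HU-308 shares lie below both DMSO shares. The difference between these RNAs and the members was not tested.

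The gene families most like the members had higher medians. The 87 tested nuclear genes of the respiratory chain, including assembly factors of complex I, had a median log2 fold change of 0.25, with 15 higher and 1 lower at an unadjusted p under 0.05. Examples were Cox6a1 of complex IV, with 111 and 110 CPM in HU-308 cells against 79.6 and 71.0 CPM in DMSO cells, and Ndufa13 of complex I, with 34.0 and 43.6 CPM in HU-308 cells against 20.3 and 24.2 CPM in DMSO cells. The lower one was the assembly factor Ndufaf4, with 10.6 and 10.7 CPM in HU-308 cells against 26.1 and 20.7 CPM in DMSO cells. The extremes were Ndufaf4 at -1.14 and Cox7a1 at 1.13. The 83 tested cytosolic ribosomal protein genes had a median of 0.20, with 10 higher and 1 lower. In either direction, 18.4% of the respiratory chain genes and 13.3% of the cytosolic ones had an unadjusted p under 0.05. Of all tested genes 18.8% did, with 8.79% higher and 9.97% lower. Their extremes were Rpl7l1 at -0.57 and Rpl10-ps3 at 1.97. By its name Rpl10-ps3 is a near-identical copy of Rpl10, and its count is uncertain where the counting could split reads between them.

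Cytosolic ribosomal protein genes took 3.79% and 3.53% of the counts in HU-308 cells, against 3.15% and 3.12% in DMSO cells. Nuclear respiratory chain genes took 0.550% and 0.554% in HU-308 cells, against 0.490% and 0.479% in DMSO cells. These shares are of unscaled counts. On them the groups of both families did not overlap, nor did those of the members, at a smaller gap. The TMM factors behind CPM and fold changes were 1.044 and 1.040 in HU-308 libraries and 0.962 and 0.958 in DMSO libraries. Dividing the shares by these factors makes the members' groups overlap and leaves those of both families apart. No test between the families was made.

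**Figure D5:**
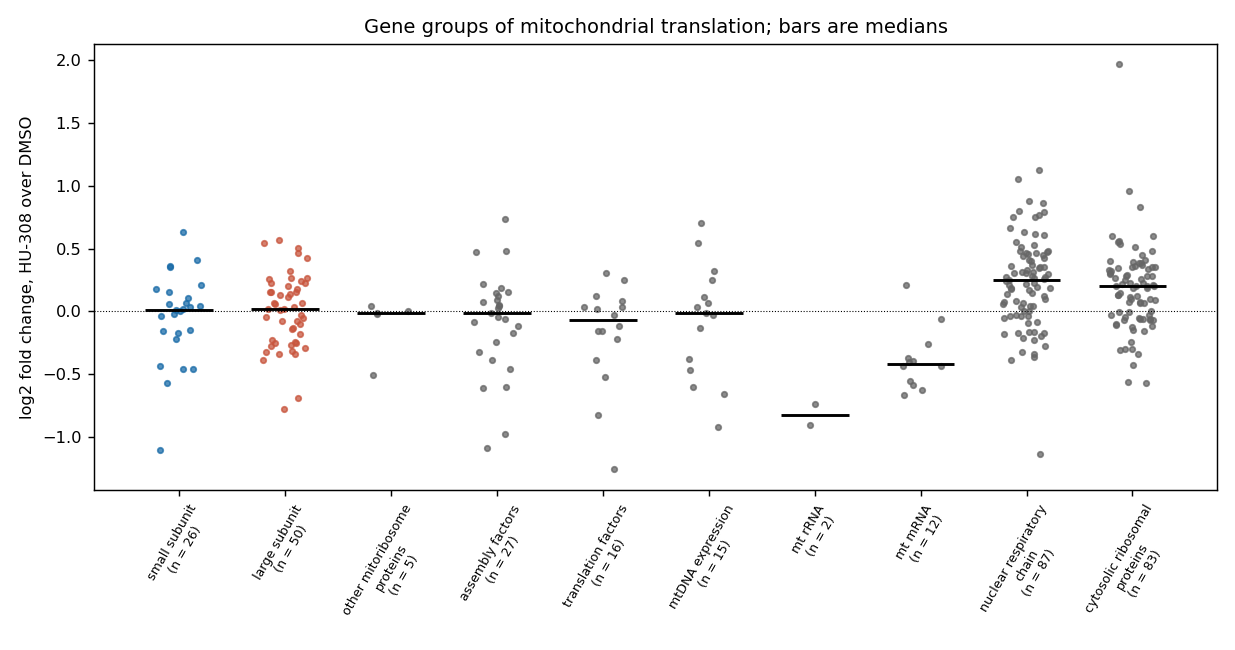
Log2 fold change (HU-308 over DMSO) of each tested gene in the groups of mitochondrial translation and the families most like the members; each point is a gene and each bar a median. Both subunits have medians near 0 (0.01 and 0.02), the mitochondrial messenger RNAs lie at -0.42, and the nuclear respiratory chain and cytosolic ribosomal proteins at 0.25 and 0.20.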

How the data were processed

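RNA of 4 libraries was read by sequencing, 2 per group, with groups taken from the labels. The submitters' processing notes list RSEM 1.3.1, DESeq2 1.4.5 and Bowtie2 2.3.4.3, and the build GRCm38 (mm10), but not what each did. The annotation release, the strand setting and any filter are not given in the sources used here. The deposited read counts per gene are whole and unscaled. FPKM, also from the authors, uses a deposited gene length. The signal columns are the authors' group means of scaled counts. The deposited log2 fold change and p-value columns are those of the authors' own comparison, HU-308 over DMSO.

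The test was run on counts with edgeR 4.0.16 (R 4.3.3): filterByExpr (minimum count 10, minimum total 15), TMM, a quasi-likelihood F test with 2 residual degrees of freedom and Benjamini-Hochberg adjustment over 14316 genes at 0.05. CPM values are TMM-scaled. SE is that of the log2 fold change. Alternatives used limma 3.58.1 and DESeq2 1.42.0. The steps were tested on simulated data. The chi-square per degree of freedom over genes was 28.6 within HU-308 and 42.6 within DMSO, so libraries of 1 group differed by more than sampling noise.

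The members, lists and motifs were chosen with earlier results of these data known, and lists are described by counts and medians without a test. The kinase genes Rps6k were left out of the cytosolic ribosomal proteins. Gene models were taken from GENCODE mouse release 21 (GRCm38), which holds 54409 of the 54532 gene identifiers; 73 of 78 members have identical coordinates there. The members named are the 12 with the lowest and the 8 with the highest log2 fold change, the 4 highest and 4 lowest by FPKM, the one not tested and a few chosen for their roles; of each list, the genes past an unadjusted p of 0.05 or examples of them, and the lowest and highest. Genes named as sharing exon bases or promoters with a member were chosen by position. Nrf1, Gabpa and Yy1 are named for the motifs searched.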

Additional observations from a re-analysis of the deposited data

How the results depend on the processing

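Genes called numbered 20 with library size only, 561 with no low-count filter, 28 with at least 1 CPM in at least 2 libraries, 803 with DESeq2, 0 with limma on FPKM (either pseudocount), 4839 with a replicate block and 37 to 337 with 1 library left out. The limma fits on FPKM had 6 members at an unadjusted p under 0.05, beside 18.3% and 18.4% of all tested genes. Members called numbered 1 (Mrps18b) with no filter, 2 with DESeq2, 17 with the replicate block (8 higher and 9 lower, beside 33.8% of all genes) and 0 to 1 with 1 library left out, the 1 being Mrps18b without DMSO replicate 2. Same-numbered libraries deviated together (correlation 0.465), but the labels do not pair them and there are only 2 pairs. Members lower at an unadjusted p under 0.05 numbered 2 with library size only, 14 with the block and 2 to 8 with 1 library left out. Members higher numbered 6 with library size only, 1 with no filter, 2 with either pseudocount on FPKM, 12 with the block and 0 to 3 with 1 library left out.

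The member median was 0.14 with library size only, where that of all genes was also 0.14; it was -0.055 with the length trend removed and -0.025 to 0.0075 with 1 library left out. The span of levels was 48.5-fold by principal transcript, a length chosen after seeing the data and set against counts of the whole gene. Of 31 named members, 27 kept their sign in every alternative. The log2 fold change of Mrpl18 was 0.066 with library size only, and that of Mrps23 was -0.071 with the length trend removed. With 1 library left out, Mrps23 ran between -0.034 (no DMSO replicate 1) and 0.0898 and was also negative with no HU-308 replicate 2. Mrps25 ran between -0.026 (no HU-308 replicate 1) and 0.22, and Mrpl10 between -0.012 (no DMSO replicate 2) and 0.27. The cause of these differences was not tested. Removing the length trend gave values without a test. The lowest count of a tested member in 1 library was 107.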

Other observations

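Genes of the mitochondrial stress response, the chaperones and proteases that tend imported and newly made mitochondrial proteins, had negative estimates in 11 of 12 cases, with a median log2 fold change of -0.18. None passed the edgeR adjusted p of 0.05. At an unadjusted p under 0.05, 4 (33.3%) were lower, against 9.97% of all tested genes. The chaperone Hspa9 had 222 and 193 CPM in HU-308 cells, against 468 and 403 CPM in DMSO cells, a log2 fold change of -1.07 ± 0.15 with an edgeR adjusted p of 0.0675. The chaperonin Hspd1 had 181 and 117 CPM in HU-308 cells, against 390 and 252 CPM in DMSO cells, a log2 fold change of -1.11 ± 0.29 with an edgeR adjusted p of 0.149. In both genes the HU-308 libraries lay below the DMSO libraries. The protease Yme1l1 (-0.37 ± 0.12) and the co-chaperone Dnaja3 (-0.41 ± 0.17) were lower by less, and Htra2, an intermembrane space protease, was the highest of the list at 0.58.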
